A study of Mus musculus with 3 samples.

Results

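The elastic fibre genes described here are Eln, Fbn1, Fbn2, Fbln1, Fbln5, Mfap4, Mfap5, Lox, Loxl1 and Emilin1. They are 10 of the 27886 genes listed in the single-cell count tables of mouse embryonic stem cells and of cardiac cultures made from them. The members are a list of names, genes whose products build or cross-link elastic fibres, and the rule sets no threshold on their values, although earlier results of these data were known when the list was made. All 10 were listed for the cardiac precursor cell cultures and for the cardiac bodies, and 8 were listed for the stem cells, where Eln and Lox had no row.

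Elastic fibres let arteries, heart valves, lung and skin stretch and recoil. Cells secrete tropoelastin, the soluble elastin monomer encoded by Eln, onto a scaffold of microfibrils, which are built mainly of fibrillins and carry small microfibril-associated glycoproteins. Fibulins such as fibulin-5 bring tropoelastin and the cross-linking enzymes to the microfibrils, and the copper enzymes of the lysyl oxidase family then join elastin molecules through oxidised lysines. In the cardiovascular system this programme is known mainly from smooth muscle cells and fibroblasts, while fibrillin microfibrils also form without elastin, for example beneath endothelium.

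The study followed male F1 cells of the strain cross C57BL/6 x CAST/EiJ through a cardiac differentiation in vitro, with a maternal C57BL/6J and a paternal CAST/EiJ genome in every group. Mouse embryonic stem cells (mESC) were kept with Lif and the inhibitors PD0325901 and CHIR99021. Cardiac precursor cell cultures (CPCC) came from cell aggregates of hanging drops that were moved to medium with ascorbic acid to become embryonic bodies, whose dissociated cells were enriched by passages with EGF and Fgf2 and not sorted. Cardiac bodies (CB) were floating aggregates in medium with ascorbic acid that were picked because they beat, and their label names mature cardiac cells.

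There was 1 sample per group, with 215 mESC, 175 CPCC and 232 CB cells in 3, 2 and 3 sequencing pools. No comparison between groups has a test, and the pools, whose culture or clone of origin the labels do not give, are set beside the pooled values and are not replicates. A cell had a median of 1528320, 1437410 and 1397870 counts in mESC, CPCC and CB, and 8, 1 and 9 cells held fewer than 10000. The tables shared 0 column names, and no 2 cells had the same values. The label of CB was checked against 10 cardiomyocyte markers, of which 0 were found in 25% or more of the CB cells. Their summed level, in CPM (counts scaled to the same total of 1000000), was 273, 1150 and 17.5 CPM in CB pools 1, 2 and 3, and that of the 8 of them listed in mESC was 38.8 to 73.8 CPM in the mESC pools. CB pool 3 was thus below every mESC pool, but in mESC pools 1, 2 and 3 a single gene gave 83.8%, 83.2% and 60.4% of the sum. Over all mESC the top gene was Ttn, at 39.1 of 50.1 CPM, and Ttn was at 0 in CB pool 3. CB pool 2 stood apart from the other CB pools, with a summed level of the 10 fibroblast markers of 424 CPM, whereas pools 1 and 3 had 14013 and 14615 CPM, and results that rest on it are given by pool. CPCC pool 1 stood apart too, with 5614 CPM of the 10 pluripotency markers against 1225 CPM in pool 2. A level is the CPM of counts summed over cells, and a cell has a gene when it holds 1 or more of its counts. Intervals are 95% intervals for counting error only. Because levels are summed over cells, fewer cells of a type and less RNA per cell cannot be told apart in them.

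Eln was close to absent from the precursor cultures and high in 2 of the 3 pools of cardiac bodies. Eln lies on chromosome 5 at 134702593-134747323 on the reverse strand (GRCm38) and encodes the elastic core of the fibre. It was not listed in mESC, stood at 0.569 and 1.42 CPM in CPCC pools 1 and 2, and at 203, 0.242 and 501 CPM in CB pools 1, 2 and 3. The CB pools therefore lie on both sides of the CPCC pools, and the groups overlap. Pooled over cells, Eln was at 1.01 CPM in CPCC and 251 CPM in CB, a ratio of 248 (221 to 280). In CPCC it rested on 5 of 175 cells, or 2.86% (0.934 to 6.54), and 1 of these cells held 69.9% of the counts. In CB it was found in 108 of 232 cells, or 46.6%, made up of 43 of 69 cells in pool 1, 2 of 78 in pool 2 and 63 of 85 in pool 3. The highest CB cell reached 5760 CPM and held 9.11% of the counts. The log2 ratio of CB against CPCC, 6.97, lay between 5.05 without CB pool 3 and 7.68 without CB pool 2. An antisense gene, Gm30003, overlaps Eln, and reads from these genes cannot be told apart because the counting was not stated to use strand.

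**Figure D1:**
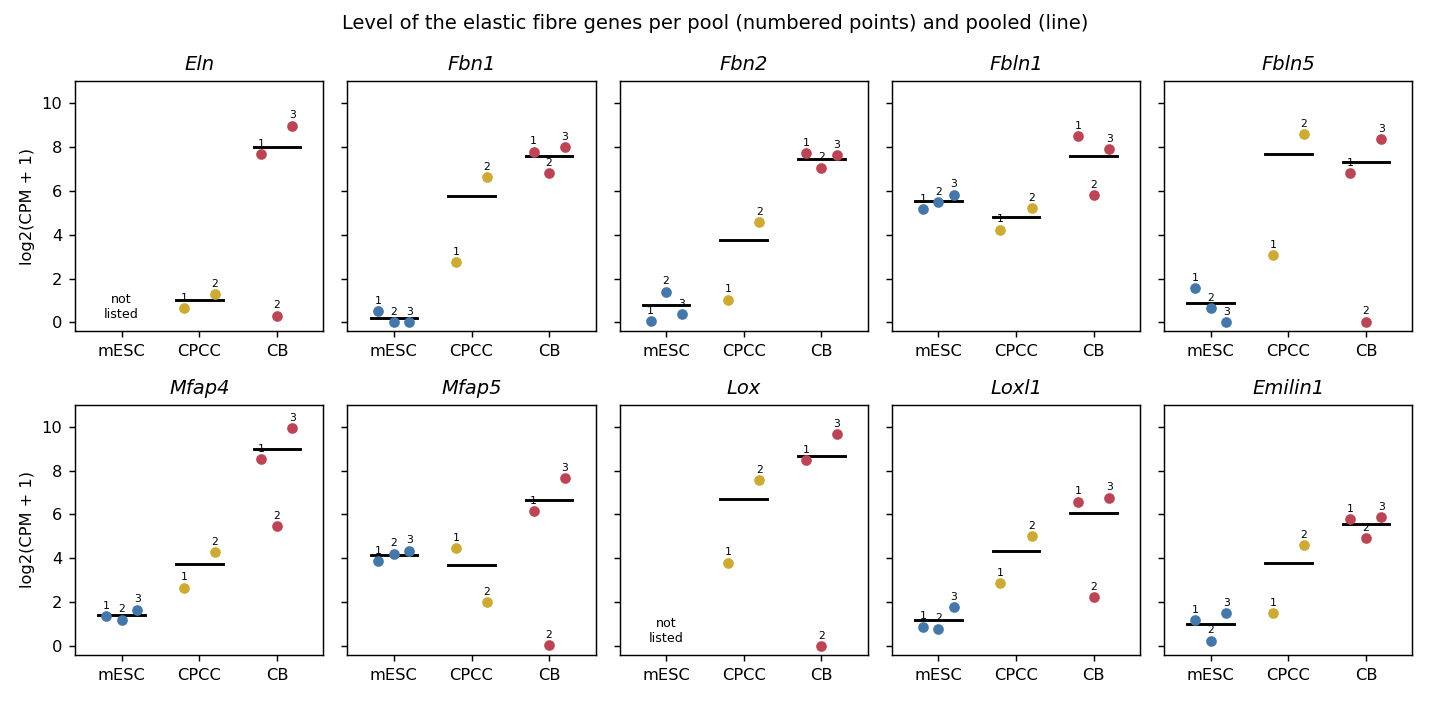
Level of each elastic fibre gene as log2(CPM + 1) in the mESC, CPCC and CB pools (numbered points) and over all cells of the culture (line). Eln, Fbln5, Mfap5 and Lox are at or near 0 in CB pool 2 and high in CB pools 1 and 3, while Fbn1, Fbn2 and Emilin1 are present in all CB pools.

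Of the genes for the microfibril scaffold, the fibrillins Fbn1 and Fbn2 were nearly absent from mESC, present in CPCC and high in every CB pool. Fbn1 (chromosome 2, 125300594-125507993, reverse strand) encodes fibrillin-1, the main microfibril protein of adult tissue and the gene altered in Marfan syndrome. Its level was 0.443, 0 and 0 CPM in the mESC pools, 5.73 and 97.9 CPM in the CPCC pools, and 219, 112 and 255 CPM in the CB pools. The groups did not overlap, and the pooled level went from 0.140 to 53.3 and 192 CPM. Only 2 of 215 mESC had Fbn1, against 53 of 175 CPCC cells (30.3%, 23.6 to 37.7), of which 12 were in pool 1 and 41 in pool 2, and 145 of 232 CB cells (62.5%, 55.9 to 68.7).

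Fbn2 (chromosome 18, 58008623-58210487, reverse strand) encodes fibrillin-2, which is known mainly from embryonic microfibrils. Its level was 0.0452, 1.65 and 0.290 CPM in the mESC pools, 1.05 and 23.0 CPM in the CPCC pools, and 209, 132 and 198 CPM in the CB pools. CPCC pool 1 thus lay within the range of the mESC pools, whereas every CB pool was above every CPCC pool. Fbn2 was found in 71.6% of CB cells (65.3 to 77.3), 42 of 175 CPCC cells (17.9 to 31.0%), of which 9 were in pool 1 and 33 in pool 2, and 2.79% of mESC (1.03 to 5.97). In CB pool 2, where Eln was near 0, Fbn2 was found in 60 of 78 cells. Both fibrillin genes are overlapped on the opposite strand by another gene, Gm9913 at Fbn1 and Gm26507 at Fbn2.

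The microfibril-associated genes Mfap4 and Mfap5 had different patterns. Mfap4 (chromosome 11, 61485431-61488900, forward strand) encodes a glycoprotein that binds tropoelastin and fibrillin. It stood at 1.57, 1.32 and 2.16 CPM in the mESC pools, 5.36 and 18.6 CPM in the CPCC pools, and 368, 43.3 and 973 CPM in the CB pools. No pools of 2 groups overlapped, and the pooled CB level of 499 CPM was 40.8 times that of CPCC (39.5 to 42.3). The log2 ratio, 5.24, was 3.49 without CB pool 3 and 6.30 without CPCC pool 2. It was found in 6.51% of mESC (3.61 to 10.7), 10.9% of CPCC cells (6.66 to 16.4) and 59.1% of CB cells (52.4 to 65.4), made up of 48 of 69, 23 of 78 and 66 of 85 cells in the CB pools. Mapk7 overlaps Mfap4 on the opposite strand.

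Mfap5 (chromosome 6, 122505845-122529290, forward strand) encodes MAGP-2, a small fibrillin-binding glycoprotein. It was already present in mESC, at 13.8, 17.6 and 19.4 CPM in the pools. CPCC had 21.2 and 3.07 CPM in its pools, and CB 69.9, 0.0454 and 202 CPM. In CB its level was the highest and its share of cells the lowest of the 3 cultures, whereas in CPCC both were below mESC. Mfap5 was found in 67.0% of mESC (60.3 to 73.2), 40.6% of CPCC cells (33.2 to 48.2) and 18.1% of CB cells (13.4 to 23.7), while the pooled levels in these cultures were 16.9, 11.8 and 98.7 CPM. By pool, 56 of 79 and 15 of 96 CPCC cells had it, and 18 of 69, 1 of 78 and 23 of 85 CB cells. In CB, 1 cell held 26.5% of the Mfap5 counts. Among cells that had the gene, the medians of these cultures were 16.1, 21.5 and 90.2 CPM. Without CB pool 3 the log2 ratio of CB against mESC was 0.39 in place of 2.48, and without CPCC pool 2 that of CPCC against mESC was 0.31 in place of -0.48.

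Among the fibulins, Fbln1 was present in many cells of all cultures, whereas Fbln5 was near 0 in mESC and high in some pools of CPCC and CB. Fbln1 (chromosome 15, 85205949-85286535, forward strand) encodes fibulin-1, a matrix protein of basement membranes and elastic tissue that is known from developing valves and vessels. It was at 35.0, 44.1 and 55.7 CPM in the mESC pools, 17.8 and 36.1 CPM in the CPCC pools, and 361, 54.8 and 239 CPM in the CB pools. CB pool 2 lay within the range of the mESC pools, so CB and mESC overlapped, whereas CB and CPCC did not. Fbln1 was found in 87.9% of mESC (82.8 to 91.9), 61.1% of CPCC cells (53.5 to 68.4) and 74.1% of CB cells (68.0 to 79.6), so that more cells had it in mESC than in CB although its pooled CB level was 4.25 times higher (4.18 to 4.32).

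Fbln5 (chromosome 12, 101746565-101819055, reverse strand) encodes fibulin-5, which binds tropoelastin and lysyl oxidase-like 1 and is needed for elastic fibre assembly in mice. It was at 1.97, 0.568 and 0 CPM in the mESC pools, 7.31 and 385 CPM in the CPCC pools, and 110.0, 0.0227 and 325 CPM in the CB pools. Fbln5 was the 1 member whose pooled level was not higher in CB than in CPCC, at 158 against 203 CPM and a log2 ratio of -0.35. That sign depended on the pools, since the ratio was 0.36 without CB pool 2 and 4.26 without CPCC pool 2. Fbln5 was found in 42 of 175 CPCC cells (17.9 to 31.0%), of which 5 were in pool 1 and 37 in pool 2. In CB it was found in 39.2% of cells (32.9 to 45.8), with 34 of 69, 1 of 78 and 56 of 85 cells in the pools. In CPCC, 1 cell held 21.3% of the counts, and that cell reached 7464 CPM. In CB pool 2, 1 cell held all 3 counts of Fbln5 and the other cells had none.

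Because these fibulins differed in their mESC level, the 250 bases before their RefSeq start sites are shown, from the RefSeq promoter table for GRCm38.p6. The upstream windows of Fbln5 at chr12:101819120-101819369 (reverse strand) and Fbln1 at chr15:85205699-85205948 (forward strand) are written 5′ to 3′ on the strand of the gene, and capitals mark the motif matches found.
Fbln5: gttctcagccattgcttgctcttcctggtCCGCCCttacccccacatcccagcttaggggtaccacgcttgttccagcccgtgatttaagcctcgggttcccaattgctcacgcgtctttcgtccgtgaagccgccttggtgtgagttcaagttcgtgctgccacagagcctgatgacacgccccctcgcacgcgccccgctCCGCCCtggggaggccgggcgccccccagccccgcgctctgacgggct
Fbln1: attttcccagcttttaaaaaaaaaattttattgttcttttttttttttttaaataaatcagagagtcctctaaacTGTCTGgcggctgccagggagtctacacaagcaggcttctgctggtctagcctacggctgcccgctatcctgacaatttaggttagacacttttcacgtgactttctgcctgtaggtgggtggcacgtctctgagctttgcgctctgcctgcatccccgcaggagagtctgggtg

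The windows were searched on both strands for 4 motifs. Of 32851 windows of this length in the table, 12.4% held the TATA element TATAAA. The core GGGCGG, bound by Sp1-type factors, was held by 32.7%. The Smad-binding element CAGACA was held by 17.1%, and the CArG box of serum response factor by 1.47%. The Fbln5 window held 2 matches to GGGCGG and had a GC content of 65.2%, and the Fbln1 window held 1 match to CAGACA and had a GC content of 46.4%. Neither held the TATA element or a CArG box. These contents belong to 1 start of each gene. RefSeq gives each a second start, with a window inside Fbln5 and one that overlaps the beginning of Fbln1, which had 49.6% GC and 1 match to CAGACA for Fbln5, and 62.4% GC and 1 match each to GGGCGG and to CAGACA for Fbln1. A match describes letters in the window and not a bound site.

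The cross-linking enzymes Lox and Loxl1 were present in CPCC, where Eln was nearly absent. Lox (chromosome 18, 52516067-52529867, reverse strand) encodes lysyl oxidase, which cross-links elastin and collagen. It was not listed in mESC, stood at 12.9 and 189 CPM in the CPCC pools and at 351, 0 and 812 CPM in the CB pools. Its CPCC share was 25.7% of cells (19.4 to 32.9), where that of Eln was 2.86%, and its CB share was 50.4% (43.8 to 57.0). These shares differed by pool, with 6 of 79 and 39 of 96 cells in CPCC and 49 of 69, 0 of 78 and 68 of 85 cells in CB. For the 0 of 78 cells of CB pool 2 the floor of 3 counts allows a share of up to 3.85% and a level of up to 0.0227 CPM, and the exact 95% bounds are 4.62% and 0.0279 CPM. The antisense gene AC161119.1 overlaps Lox.

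Loxl1 (chromosome 9, 58287738-58313186, reverse strand) encodes the family member that works with fibulin-5 on elastin. Its level was 0.850, 0.736 and 2.39 CPM in the mESC pools, 6.36 and 31.0 CPM in the CPCC pools, and 95.3, 3.73 and 108 CPM in the CB pools. CPCC lay above mESC in every pool, whereas CB pool 2 was below both CPCC pools. It was found in 7.44% of mESC (4.31 to 11.8), 34.3% of CPCC cells (27.3 to 41.8) and 45.7% of CB cells (39.2 to 52.3), with 43 of 69, 10 of 78 and 53 of 85 cells in the CB pools.

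Emilin1 (chromosome 5, 30913402-30921277, forward strand) encodes an elastin-microfibril interface protein that is found between elastin and the microfibrils and also binds integrins. It was at 1.26, 0.189 and 1.81 CPM in the mESC pools, 1.83 and 23.3 CPM in the CPCC pools, and 53.7, 29.5 and 58.3 CPM in the CB pools. The pools of the groups did not overlap, although CPCC pool 1 was just above the highest mESC pool. Emilin1 was found in 7.44% of mESC (4.31 to 11.8), 25.7% of CPCC cells (19.4 to 32.9) and 44.8% of CB cells (38.3 to 51.5). In CPCC 13 of its cells were in pool 1 and 32 in pool 2. Its CB share was similar in size in every pool, at 35 of 69, 35 of 78 and 34 of 85 cells.

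**Figure D2:**
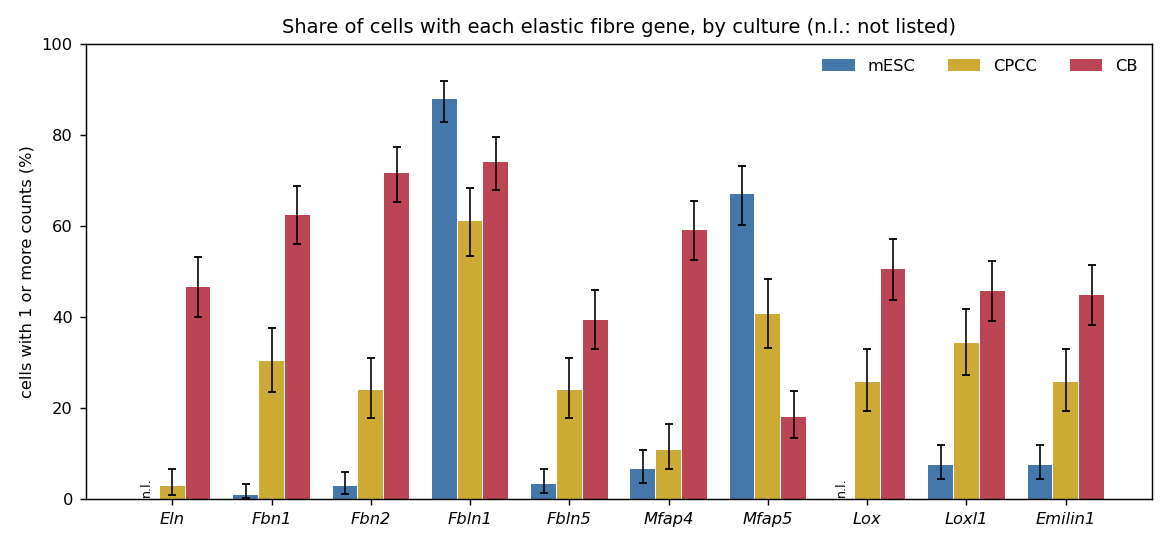
Share of mESC, CPCC and CB cells with 1 or more counts of each elastic fibre gene, in percent, with exact 95% intervals for counting error (n.l., not listed). For 8 members the CB bar is the highest, whereas Fbln1 and Mfap5 are highest in mESC, at 87.9% and 67.0%.

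To set the members against other genes, log2 ratios of CPM + 1 were formed for every gene that both cultures list. In CPCC against mESC, 6 of the 8 members listed in both were at least 2-fold higher and 0 were at least 2-fold lower, while Fbln1 and Mfap5 lay between, at -0.69 and -0.48. Over all 20272 genes, 13.4% were at least 2-fold higher and 6.38% at least 2-fold lower. The members had a median log2 ratio of 2.87, against -0.02 for all genes. All CPCC pools were above all mESC pools for 5 of the 8 members, and for 19% of all genes. The members with the largest ratios were Fbln5 at 6.79 and Fbn1 at 5.57. Without CPCC pool 2 these were 2.17 and 2.56, the count was 4 of 8 and the median 0.88.

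In CB against mESC all 8 members listed in both were at least 2-fold higher, from Fbln1 at 2.06 and Mfap5 at 2.48 to Fbn1 at 7.41 and Mfap4 at 7.56. Of all 19855 genes, 24.9% were at least 2-fold higher and 11.3% at least 2-fold lower. The median was 5.65 for the members and 0.13 for all genes, and 5 of 8 members had no overlap of pools, against 24.7% of all genes. Without CB pool 3 the count was 7 of 8, Mfap5 being at 0.39, the median was 4.28, and Mfap4 at 5.81 was below Fbn1 at 7.01.

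In CB against CPCC, 9 of the 10 members were at least 2-fold higher, the exception being Fbln5, with 17% of all 20995 genes at least 2-fold higher and 7.54% at least 2-fold lower. The median log2 ratio was 2.36, against 0.14 for all genes, and Eln at 6.97 and Mfap4 at 5.24 had the largest values. The pools did not overlap for Fbn1, Fbn2, Fbln1, Mfap4 and Emilin1, 5 of 10 members, against 17.9% of all genes. Leaving out CB pool 3 gave 6 of 10 and a median of 1.45, leaving out CPCC pool 1 gave 7 of 10 and a median of 1.74, and leaving out CPCC pool 2 gave 10 of 10 and a median of 4.55. The fibroblast markers were higher as well, with 10 of 10 at least 2-fold higher and a median of 4.04 in CB against CPCC, 4 of the 4 listed in both and a median of 8.03 in CB against mESC, and 3 of 4 and a median of 4.47 in CPCC against mESC. Other marker lists moved too. In CB against CPCC, 9 of 10 cardiomyocyte and 5 of 8 endothelial markers were at least 2-fold higher, with medians of 2.78 and 2.08, whereas 4 of 7 smooth muscle markers were at least 2-fold lower and 2 higher, with a median of -1.11, and 8 of 8 macrophage markers were lower. In CPCC against mESC, 4 of the 5 smooth muscle, 3 of the 3 macrophage and 4 of the 7 epithelial markers listed in both were at least 2-fold higher. In CB against mESC these were 5 of 5, 3 of 3 and 6 of 7, beside 7 of 8 cardiomyocyte and 3 of 5 endothelial markers. The pluripotency markers ran the other way, with 7 of 10 and 6 of 7 at least 2-fold lower in these pairs. The part of these lists in the members' ratios was not tested. The 3 pairs share their samples, so they are not independent of each other.

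**Figure D3:**
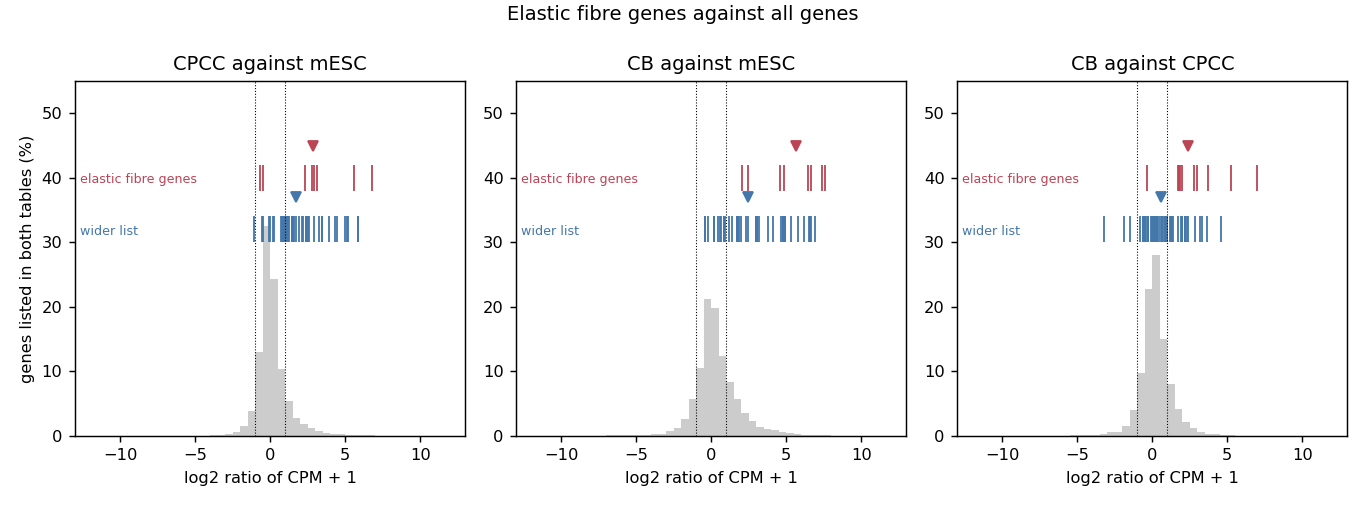
Log2 ratio of CPM + 1 for the members (red marks) and the wider elastic fibre list (blue marks), with their medians (triangles), over the distribution of all genes listed in both tables in bins of 0.5 (grey bars, percent of genes). Dotted lines mark a 2-fold difference, and the height of the marks has no meaning. The medians of the members are 2.87, 5.65 and 2.36, and those of all genes are -0.02, 0.13 and 0.14.

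The order of appearance was read as the first of mESC, CPCC and CB in which 25% or more of the cells had the gene. It is an order of cultures and not of time, since CB were grown from cell aggregates and not from CPCC. Fbln1 and Mfap5 were first in mESC. Fbn1, Lox, Loxl1 and Emilin1 were first in CPCC, and Eln, Fbn2, Fbln5 and Mfap4 in CB. Some of this order depended on the line drawn. Fbn2 and Fbln5, both found in 42 of 175 CPCC cells, lay just below it, and Lox and Emilin1, both at 25.7%, just above. With a line at 10% of cells, or at a level of 10 CPM, 7 members were first in CPCC and Eln alone in CB. With 10 or more counts asked of a cell, Lox and Emilin1 were first in CB. After every cell was thinned to 400000 counts, Lox was first in CB and Fbn2 in CPCC. Where 25% was asked of every pool, Loxl1 alone was first in CPCC, since Fbn1 and Emilin1 were below the line in CPCC pool 1 and were first in CB, and Eln, Fbln5 and Lox were first in none, because of CB pool 2. With a line at 50% no member was first in CPCC. Fbln1 and Mfap5 were first in mESC in all of these settings. Eln was never placed before CB.

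Per kilobase of exon sequence, which allows levels of different genes to be set side by side, the members differed widely in each culture. In CB the order was Mfap4 at 259 CPM per kb, Lox at 85.8, Fbln1 at 43.5, Eln at 31.0, Mfap5 at 27.5, Fbln5 at 22.9, Loxl1 at 19.7, Fbn1 at 15.9, Fbn2 at 13.2 and Emilin1 at 9.36 CPM per kb. The ranges over CB pools overlapped for every pair of neighbours in this order. In CPCC, Fbln5 at 29.3 and Lox at 21.8 CPM per kb led, with Mfap4 next at 6.35 and Eln last at 0.125 CPM per kb. These genes held the same places in pool 2, whereas in CPCC pool 1 Mfap5 led at 5.90 CPM per kb, followed by Fbln1 at 4.07, Mfap4 at 2.79 and Lox at 2.71, with Fbln5 at 1.06 CPM per kb. In mESC, Fbln1 at 10.2 and Mfap5 at 4.71 CPM per kb were the highest, and the other 6 listed members were below 1 CPM per kb.

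CB pool 2 held little or no Eln, Lox, Fbln5 and Mfap5 but had Fbn1, Fbn2 and Emilin1. At least 2-fold lower in pool 2 than in both other CB pools were 7 of the 10 members, against 8.56% of the 24229 genes of the table, and the exceptions were Fbn1, Fbn2 and Emilin1. Summed over the members, the levels of pools 1, 2 and 3 were 2041, 375 and 3672 CPM. In pool 2, Fbn2 gave 35.2% of that sum. The fibroblast markers moved with this result, with 1 of 10, Dpt, at 0 in pool 2. The endothelial markers moved the other way, with all 8 found in 25% or more of the cells of pool 2 and a summed level of 1072 CPM, against 51.8 and 18.6 CPM in pools 1 and 3. The endoderm markers were also highest in pool 2, at 1392 CPM against 32.4 and 2.22 CPM, as were those of cardiomyocytes given above. Lowest in pool 2, as were the members, were the epithelial markers at 903 CPM against 2207 and 4857 CPM, the macrophage markers at 5.396 CPM against 333 and 179 CPM and the mesothelial markers at 2.82 CPM against 120 and 246 CPM. The smooth muscle markers were not lowest there, with 3482, 1007 and 978 CPM in pools 1, 2 and 3. The median cell of pool 2 was the deepest, at 1750780 counts, against 804581 in pool 1 and 1596810 in pool 3. The part of cell types in the result is described by cluster below, and that of culture or clone was not tested.

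**Figure D4:**
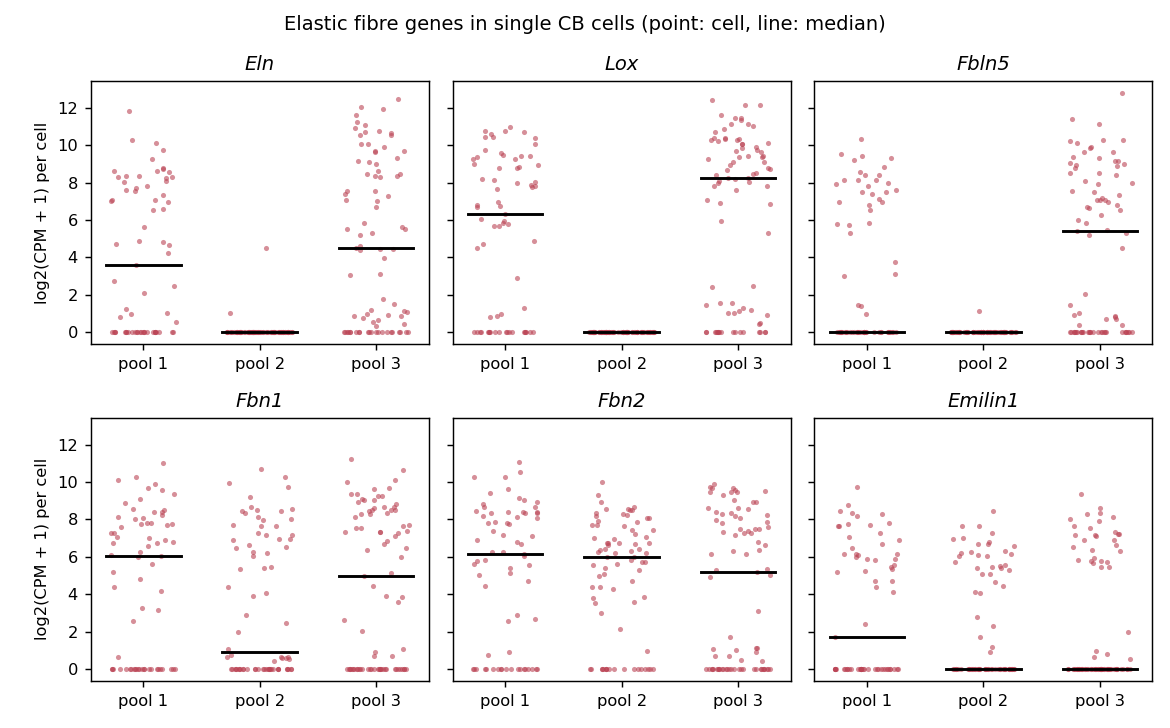
Level of 6 elastic fibre genes in each CB cell, as log2(CPM + 1), by pool (points, cells; lines, medians). In pool 2, Eln was found in 2 of 78 cells, Fbln5 in 1 and Lox in 0, whereas Fbn1 was found in 47, Fbn2 in 60 and Emilin1 in 35.

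In CPCC the pools also differed. Pool 2 was at least 2-fold higher than pool 1 for 7 of the 10 members, against 14.2% of the 23371 genes, and Mfap5 was lower, at 3.07 against 21.2 CPM. On the scale of CPM + 1, Eln and Fbln1 were within 2-fold, with log2 differences of 0.63 and 0.98. The summed level of the members was 80.1 and 809 CPM in these pools. Markers of the pluripotent state ran the other way, as given above, those of fibroblasts went with it at 105 and 907 CPM, and those of smooth muscle were at 4066 and 7316 CPM. The macrophage markers differed most, at 16.9 and 4382 CPM, and the epithelial markers were at 1860 and 539 CPM. Their part in the result was not tested.

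To place the members in cells, each culture was clustered with Seurat on genes that left out the members and the wider list, and clusters were named only from marker lists that hold none of the members. In CB the 82 cells of cluster 1, led by Col1a2, Lum and Col3a1 and fibroblast-like by 7 of 10 markers in most cells, held most of the programme. Their summed members reached 5034 CPM, against 505 CPM in cluster 0, 372 CPM in cluster 2 and 457 CPM in cluster 3. They held 97.6% of the CB counts of Eln, 98.8% of Mfap5, 91.8% of Mfap4, 91.1% of Fbln5, 90.2% of Lox and 86.1% of Loxl1. For Fbn1, Fbn2, Fbln1 and Emilin1 the share was lower, at 70.6%, 63.3%, 73.3% and 70.4%. In this cluster Eln was found in 72 of 82 cells (87.8%, 78.7 to 94.0), Lox in 93.9% and Mfap4 in 95.1%, and Mfap5 in 39.0%. Of its cells, 34 came from pool 1, 48 from pool 3 and 0 from pool 2. Within pool 1 these cells had 350 CPM of Eln and within pool 3 they had 819 CPM. In these pools Mfap4 was at 587 and 1558 CPM, Lox at 525 and 1239 CPM and Fbln5 at 141 and 508 CPM. Fbn1, at 362 and 390 CPM, and Fbn2, at 323 and 306 CPM, differed less.

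Fibrillin genes with next to no Eln were seen in CB cluster 3, which was endothelial-like by all 8 markers in most cells and was led by genes such as Ramp2, Kdr and Plvap. Its 20 cells were all of pool 2. Fbn1 was found in 19 of them (75.1 to 99.9%) at 326 CPM, Fbn2 in 14 at 59.3 CPM and Emilin1 in 12 at 55.6 CPM. Eln was found in 1 cell at 0.0688 CPM. Lox, Fbln5 and Mfap5 were found in 0 of 20 cells, for which the exact interval reaches up to 16.8%.

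The largest CB cluster, cluster 0, stayed unnamed, with Armc8, Eif3a and Gnpat among its leading genes. Of its 87 cells, 58 were of pool 2, and it had Fbln1 in 78.2%, Fbn2 in 70.1% and Fbn1 in 48.3% of cells, but Eln in 17.2% and Lox in 18.4%. Its pools differed within the cluster. Eln was found in 11 of 24 cells of pool 1 at 57.9 CPM, in 1 of 58 cells of pool 2 at 0.291 CPM and in 3 of 5 cells of pool 3 at 10.3 CPM. Lox was found in 13, 0 and 3 of these cells. For Eln and Lox the gap between pool 2 and the other pools was thus present in this cluster too, but not for every member. Mfap4 was at 203 CPM in pool 1, 54.3 CPM in pool 2 and, over 5 cells, 55.6 CPM in pool 3. Fbn2 was highest in pool 2, at 153 CPM against 126 and 37.2 CPM. The cluster held markers of several types, with summed levels of 1291 CPM for cardiomyocytes, 1451 CPM for endoderm and 1558 CPM for fibroblasts.

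Cluster 2 of CB, epithelial-like by all 8 markers, had low levels in many cells, and 5 of the 10 fibroblast markers were also found in most of its cells, at a summed 1389 CPM against 22844 CPM in cluster 1. Eln was found in 20 of its 43 cells at a level of 15.7 CPM, but with 10 or more counts in 6 cells. Lox, at 121 CPM, was found in 24 cells and with 10 or more counts in 13. In cluster 1 the same step from 1 to 10 counts took Eln from 72 to 68 cells and Lox from 77 to 74.

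**Figure D5:**
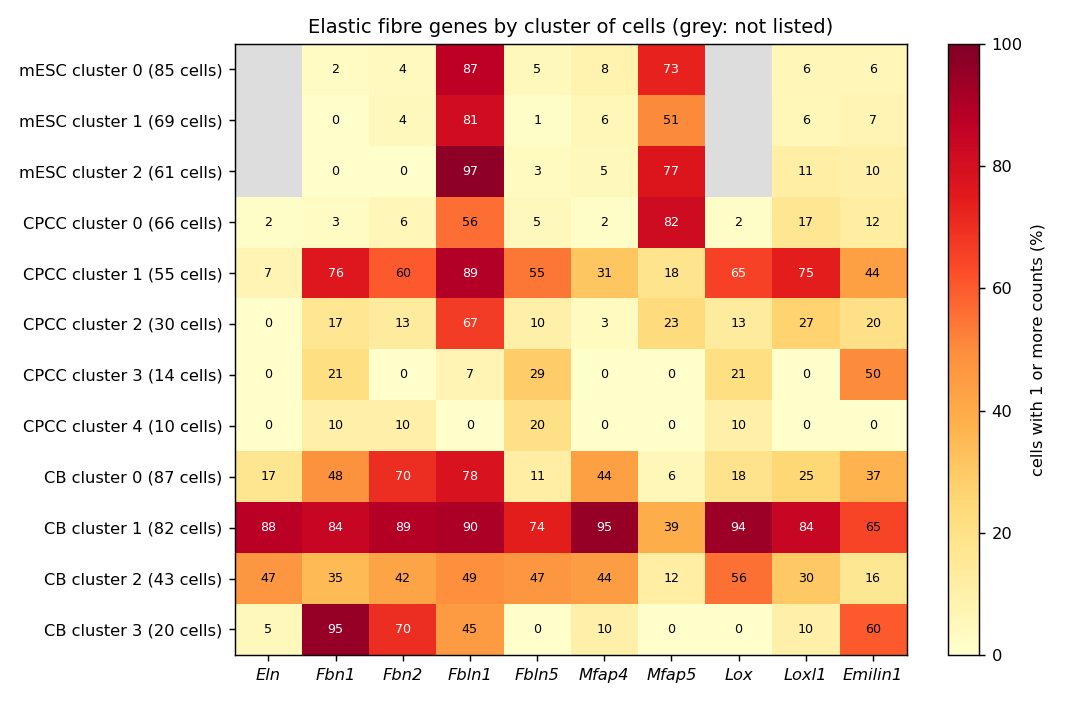
Share of cells with 1 or more counts of each elastic fibre gene (columns) in each cluster of mESC, CPCC and CB (rows), in percent, printed and coloured. CB cluster 1 is high for all members but Mfap5, CB cluster 3 reaches 60% or more of cells only for Fbn1, Fbn2 and Emilin1, and CPCC cluster 1 has 6 of the 10 members in most cells but Eln in 7.27%.

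In CPCC the members other than Mfap5 had most of their counts in cluster 1, with 55 cells led by Acta2, Sparc and Bgn. It was smooth muscle-like, with 5 of 7 markers in most cells at a summed 14075 CPM, although its leading genes included Acta1, known from skeletal muscle. Of the same markers, 4 were in most cells of CPCC cluster 2 and 3 in most cells of cluster 0, at 918 and 1090 CPM. In cluster 1, 3 of the 10 fibroblast markers were also in most cells, at a summed 1383 CPM. Bgn and Igfbp7 were among its leading genes and among those of the fibroblast-like CB cluster 1. Fbln5 stood in CPCC cluster 1 at 546 CPM, Lox at 275 CPM, Fbn1 at 138 CPM and Loxl1 at 48.1 CPM, and these cells held 99.9%, 97.8%, 96.2% and 93.3% of the CPCC counts of these genes. For Fbln1 and Emilin1 the share was lower, at 69.1% and 55.2%, and Emilin1 stood there at 19.3 CPM. Eln was at 2.44 CPM and was found in 4 of the 55 cells. The pool mattered within this cluster as well, since Fbln5 was found in 3 of 19 cells of pool 1 and in 27 of 36 cells of pool 2, and Lox in 6 and 30 of these cells. Levels in these pools were 27.5 and 814 CPM for Fbln5 and 49.6 and 391 CPM for Lox. Those of Fbn1 were 22.0 and 199 CPM, and those of Loxl1 16.1 and 64.6 CPM. Mfap5 was found instead in CPCC cluster 0, pluripotent-like by all 10 markers, where 54 of 66 cells (81.8%, 70.4 to 90.2) had it and which held 80.8% of its counts. The 14 cells of CPCC cluster 3, macrophage-like by all 8 markers, had Emilin1 in 7 cells at 27.4 CPM and Fbn1 in 3 cells at 3.39 CPM. The median of these cells was 1971920 counts, against 1709390 in cluster 1. Traces of Fbln5 and Lox were also found there, Fbln5 in 4 cells at 0.412 CPM and Lox in 3 cells at 0.0951 CPM. These shares of 28.6% and 21.4% of 14 cells are near the 25% used for the order of appearance, at levels far below those of cluster 1. In the pluripotent-like cluster 0 Fbln5 was found in 3 and Lox in 1 of 66 cells, but 57 of these cells were of pool 1 while all macrophage-like cells were of pool 2. Of the 9 cells of cluster 0 in pool 2, 1 had Fbln5 and 1 had Lox. Eln was found in 0 of the 14 macrophage-like cells. Doublets were not called, since the capture sites had been inspected in the study.

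Many CB cells had several members at once. The median cell had 2 members in mESC, 2 in CPCC and 4 in CB. In CB 115 of 232 cells (49.6%, 43.0 to 56.2) had 5 or more, against 39 of 175 (22.3%, 16.4 to 29.2) in CPCC and 0 of 215 in mESC. By pool, 66.7%, 15.4% and 67.1% of CB cells and 8.86% and 33.3% of CPCC cells had 5 or more. At least 8 members were found in 75 CB cells, of which 36 were in pool 1, 0 in pool 2 and 39 in pool 3. When every cell was thinned to 400000 counts, which left out shallower cells, the CB share with 5 or more was 47.6%.

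Most CB cells with Eln also had Lox. Of the 108 cells with Eln, 91 had Lox (84.3%), while 26 of the 124 cells without Eln had it (21.0%). Of these 124 cells, 76 were in CB pool 2, where no cell had Lox. In pool 1 Lox was found in 37 of 43 cells with Eln and in 12 of 26 without, and in pool 3 in 54 of 63 and in 14 of 22. Fbln5 was found in 26 of 43 and 8 of 26 of these cells in pool 1, and in 45 of 63 and 11 of 22 in pool 3. Mfap5 was found in 17 of 43 and 1 of 26 in pool 1, and in 22 of 63 and 1 of 22 in pool 3. Fbn2 was found in 39 of 43 and 11 of 26 in pool 1, and in 46 of 63 and 10 of 22 in pool 3, whereas 58 of the 76 cells of pool 2 without Eln had it. In CPCC, 37 of the 45 cells with Lox had Fbn1, and 2 had Eln.

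Over the 219 CB cells with 100000 or more counts, all 45 pairs of members had a Spearman rho above 0, with a median of 0.40 and the highest values for Eln with Mfap4 (0.75) and Eln with Lox (0.75). Within pools the median was 0.44 in pool 1 and 0.44 in pool 3. In pool 2, where Eln, Fbln5 and Mfap5 were found in 1 or 2 cells each and Lox in none, the median over the 36 pairs without Lox was 0.01. In CPCC the highest were Fbn1 with Lox (0.76) and Fbn1 with Fbn2 (0.73), and the lowest was Fbln5 with Mfap5 (-0.30). Within CPCC pools 1 and 2 these were 0.70 and 0.76, 0.42 and 0.79, and -0.07 and -0.13. In mESC the median was -0.02. These values describe cells that share libraries and depth and have no test.

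Among the 9916 genes found in 25% or more of these CB cells, those with CPM most like each member over the 219 cells were mostly collagens. Eln went with Col1a1 (rho 0.77), Col1a2 and Bgn, Lox with Col1a1 (0.77), Col3a1 and Col1a2, and Loxl1 with Col1a2 (0.72). Mfap4 went with Col1a2 (0.80) and with Mfap2 (0.79), the gene of MAGP-1. The fibrillins had other neighbours, Fstl1 (0.64) for Fbn1 and Cdh11 (0.61) for Fbn2. Emilin1 and Mfap5 had weaker ones, Col5a2 (0.46) and Col1a1 (0.44). Within pools 1 and 3, Eln with Col1a1 was at 0.59 and 0.77, and Lox with Col1a1 at 0.54 and 0.67. In pool 2, Fbn1 with Fstl1 was at 0.48, Fbn2 with Cdh11 at 0.55 and Emilin1 with Col5a2 at 0.44. Mfap4 and Loxl1 with Col1a2 were at 0.39 and 0.27 in that pool. Fbln1 with Col3a1, at 0.62 over all cells, was at 0.09 there. None is given there for Eln, which 2 cells of that pool had. The sum of the members was most like Mfap2 (0.81).

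A wider list of 53 genes of elastic fibres and microfibrils held relatives, latent TGF-beta binding proteins, processing enzymes, integrin receptors, proteases and TGF-beta ligands. In CPCC against mESC 29 of the 41 listed in both were at least 2-fold higher and 1, Adamtsl4, at least 2-fold lower, with a median of 1.72. In CB against mESC 32 of 43 were at least 2-fold higher and 0 lower, with a median of 2.42. In CB against CPCC 17 of 50 were at least 2-fold higher and 3 lower, with a median of 0.55, beside 9 of 10 and 2.36 for the members. The background shares are those given above for each pair.

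Within the wider list, the pools differed as well. Mfap2, which was not listed in mESC, was at 15.9 and 148 CPM in the CPCC pools and at 614, 172 and 987 CPM in the CB pools, and was found in 80.2% of CB cells. Efemp2, which encodes fibulin-4, an essential partner of lysyl oxidase, was at 4.17 CPM in mESC, at 33.9 and 164 CPM in the CPCC pools and at 172, 69.1 and 229 CPM in the CB pools. Efemp1, the gene of fibulin-3, was at 0.703 CPM in mESC, at 1.55 and 21.8 CPM in the CPCC pools and at 89.7, 0.212 and 255 CPM in the CB pools. Fbln2 was at 1.47 CPM in mESC, at 17.4 and 135 CPM in the CPCC pools and at 86.3, 11.3 and 97.5 CPM in the CB pools. CB pool 2 was the lowest CB pool for each of these genes, and CPCC pool 2 was above CPCC pool 1.

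Of the latent TGF-beta binding proteins, which tie the growth factor to microfibrils, Ltbp1 was at 4.40 CPM in mESC, at 14.3 and 48.0 CPM in the CPCC pools and at 94.5, 30.2 and 106 CPM in the CB pools. Ltbp2 was at 0.461 CPM in mESC, at 0.539 and 13.5 CPM in the CPCC pools and at 3.22, 0 and 91.8 CPM in the CB pools, so that its CB level rested on pool 3. Ltbp4, which promotes elastic fibre assembly with fibulin-5, was at 26.3 CPM in mESC, at 78.7 and 21.0 CPM in the CPCC pools and at 79.9, 2.15 and 108 CPM in the CB pools. Bmp1, a protease that activates lysyl oxidase, was at 0.219 CPM in mESC, at 18.5 and 64.7 CPM in the CPCC pools and at 75.8, 26.6 and 55.8 CPM in the CB pools. Fn1, encoding fibronectin, on which microfibrils are laid down, was at 476 CPM in mESC, at 202 and 1377 CPM in the CPCC pools and at 671, 565 and 468 CPM in the CB pools, which lay within the CPCC range.

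Among the genes at least 2-fold lower in CB than in CPCC over all cells were Ctss and Emilin2, and for both this rested on CPCC pool 2. Ctss, which encodes cathepsin S, an elastin-degrading protease of macrophages, was at 0 and 611 CPM in the CPCC pools and at 134, 0 and 18.7 CPM in the CB pools. Emilin2 was at 1.09 and 26.1 CPM in the CPCC pools and at 9.83, 0 and 2.85 CPM in the CB pools. The macrophage markers had 16.9 and 4382 CPM in the CPCC pools and 333, 5.396 and 179 CPM in the CB pools, and their part in these values was not tested. Itga8, an integrin subunit of smooth muscle and fibroblasts, was at 0 and 3.66 CPM in the CPCC pools and at 47.8, 5.46 and 57.4 CPM in the CB pools. Thsd4, which promotes fibrillin-1 assembly, was at 0.539 and 1.5997 CPM in the CPCC pools and at 12.1, 13.3 and 96.6 CPM in the CB pools. For these last genes all CB pools were above the CPCC pools.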

How the data were processed

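Single cells of 3 cultures (mESC, CPCC and CB; 1 sample each) were captured on the Fluidigm C1 and made into SMART-Seq libraries. The authors aligned reads to GRCm38 (Ensembl annotation) with STAR 2.7 in Partek Flow. The counting model and strand are not given in the sources used here. The deposited mESC and CB tables hold estimated counts (28.9% and 30.8% of values above 0 not whole), and the deposited CPCC table holds whole counts. From CPCC, 208 rows without a gene and 23 symbols turned into dates (0.139% of counts) and 2 columns without values were left out. Unlisted genes were not set to 0. Tables were linked to samples by culture name.

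Counts were summed over cells and scaled to CPM. Ratios used log2(CPM + 1) and genes listed in both tables. Shares have exact Clopper-Pearson and levels Poisson 95% intervals, with a floor of 3 counts. Values were rounded for intervals, thinning and size factors. Clusters came from Seurat 5.3.0 (10 principal components, resolution 0.6), scaling alternatives from edgeR 4.0.16 and DESeq2 1.42.0. The ratio and interval steps were tested on simulated data. Exon lengths and positions came from GENCODE M21. RefSeq upstream windows were printed where they lay outside the annotated gene.

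Genes were named from the members, the wider list, the marker lists and, per member, the 3 genes most alike over CB cells. All members and examples of the others are given. The values of 1 gene of the wider list are not reported here. Members and lists were chosen with earlier results of these data known.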

Additional observations from a re-analysis of the deposited data

How the results depend on the processing

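No paired analysis was possible because each group has 1 sample and the pools carry no shared numbers. All counts of members at least 2-fold higher kept within 1.5 times of 6 of 8, 8 of 8 and 9 of 10 (CPCC against mESC, CB against mESC, CB against CPCC) under every scaling, pseudocount, filter and weighting tried. Leaving out 1 pool moved these counts over 4 to 6, 7 to 8 and 6 to 10, and the medians of the log2 ratios over 0.88 to 3.69, 4.28 to 6.20 and 1.45 to 4.55. The median of 2.87 for CPCC against mESC was 3.69 with a pseudocount of 0.1 CPM and 1.06 with 10 CPM. That of 5.65 for CB against mESC was 6.49 and 3.35 with these, and 5.47 with DESeq2 size factors. That of 2.36 for CB against CPCC was 2.10 with a pseudocount of 10 CPM, 2.18 with TMM factors, 2.17 with DESeq2 size factors and 2.50 when each cell counted equally. TMM and DESeq2 factors shifted the median of all expressed genes by -0.15 and -0.21 in CB against mESC and by -0.17 and -0.18 in CB against CPCC. In the order of appearance, CPCC had 4 members first and CB 4; with 10% of cells or 10 CPM these were 7 and 1, CPCC had 0 with 50% of cells, 2 with 10 or more counts and 1 with 25% in every pool. The share of cells with 5 or more members was 8.86% and 33.3% within CPCC pools 1 and 2, and 66.7%, 15.4% and 67.1% within the CB pools. The highest share of cells with Eln in a CB cluster, 87.8%, was 95.2% at a resolution of 1.0. Depth limits the members at 0 or near it in mESC, where 3 counts are 0.00854 CPM. With 1 sample per group, differences between cultures cannot be told apart from differences between libraries, and the cause of the differences between pools was not tested.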

Other observations

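Mfap5 lies near pluripotency genes on chromosome 6, a feature looked up after its values were seen. Of 10 listed genes within 250000 bases of it, Gdf3 was at a distance of 76113 bases, Dppa3 at 97120 bases and Nanog at 178199 bases. In mESC, CPCC and CB, Nanog was at 654, 188 and 0.458 CPM. Gdf3 was at 266 CPM in mESC and 127 CPM in CPCC, and Dppa3 at 175 and 41.0 CPM, and neither was listed in CB. Mfap5, at 16.9, 11.8 and 98.7 CPM, differed from these in CB, where 32 of its 42 cells were in the fibroblast-like cluster. The nearest gene, Rimklb, at 7084 bases, was at 35.0, 22.5 and 17.5 CPM. Other neighbours were highest in CPCC, such as M6pr at 170, 252 and 162 CPM and Apobec1 at 8.38, 50.9 and 4.32 CPM.

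The 5 CPCC cells with Eln held 40, 29, 7, 8 and 195 counts of it. Of these, 4 were in the smooth muscle-like cluster and 1 in the pluripotent-like cluster, and they had 3, 3, 3, 7 and 8 members.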
